A study of Mus musculus with 9 samples.

Results

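The Hox genes of clusters A to D were followed in the temporomandibular joint of mouse embryos and in whole embryos. All probe sets that carry a single gene symbol made of Hoxa, Hoxb, Hoxc or Hoxd and a number were taken, which gave 48 of the 45101 probe sets of the array and 33 genes. Cluster A had 16 probe sets for 9 genes, cluster B 11 for 9, cluster C 11 for 7 and cluster D 10 for 8.

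The groups were 3 arrays of TMJ condyle, 3 arrays of TMJ fossa and 3 arrays of whole body, all from Mus musculus embryos at embryonic day 16.5. The condyle is the cartilage-covered head of the lower jaw, and the fossa is the socket in the skull base that it moves in. Per the labels, tissue was frozen fresh and cut out by laser capture, with 1 isolation kit and biotin-labelled cRNA for all 9 arrays; strain, sex and the embryo behind each array are not given in the sources used here. The design text calls the arrays biological triplicates, so the spread that the p-values rest on is that between these samples, which may be in part technical.

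Hox genes encode homeodomain transcription factors that lie in 4 clusters, numbered by paralogue group in the order in which they stand in the cluster. Low numbers are expressed from the hindbrain and neck backwards, and high numbers are switched on progressively nearer the tail and the tips of the limbs. The neural crest cells of the first pharyngeal arch, which build the jaw skeleton, are known for lacking Hox expression, while the arches behind it use Hoxa2, Hoxa3 and their paralogues.

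The deposited intensities were analysed as log2 values. An array's background limit was the highest of its 27 Bacillus subtilis control probe sets, between 2.87 and 3.52 over the 9 arrays, and a probe set counts as above background in a group when it passed that limit on at least 2 of 3 arrays. The cartilage markers matched the label of the joint samples except for Sox9 in fossa. All 5 passed the test as higher in condyle than in whole body, and 4 of 5 in fossa. Sox9 did not pass in fossa (log2 difference -0.36, limma adjusted p = 0.496). It was higher in condyle than in fossa (2.32, limma adjusted p = 0.0054). The summed intensities of the 5 markers were 6710 to 11200 (condyle), 5870 to 15000 (fossa) and 372 to 623 (whole body). The mean log2 value of the 18S control probe sets was 5.86 to 9.63 in condyle, 6.91 to 9.52 in fossa and 13.2 to 13.5 in whole body, and its part in the results was not tested. The first fossa array stood apart from the other 2, with the highest background limit of 3.52, 30.31% of all probe sets above that limit against 43.8% and 40.72%, and the lowest log2 difference between the 3 prime and 5 prime Gapdh control probe sets, 3.69 against 4.97 and 5.31. That Gapdh difference was 5.33 to 6.86 on condyle and 5.34 to 6.52 on whole body arrays, so the 3 prime end read higher on all 9. Its part in the probe sets at background was not tested. Summed bone marker intensities were 7290, 26100 and 19100 on the 3 fossa arrays, and 23100, 5140 and 5300 on the condyle arrays. Summed red cell marker intensities were 49.9, 433 and 301 on the fossa arrays, and 640, 554 and 218 on the condyle arrays. The part of these differences in the Hox results was not tested. The first fossa array gave the highest value of the fossa arrays in 40 of 48 Hox probe sets (83.3%), against 57.0% of all probe sets. The fossa values of Hoxa9, Hoxa5, Hoxa3, Hoxc4, Hoxc5 and Hoxd3 are given with and without that array.

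The 250 bases before the RefSeq transcript start (GRCm38.p6) are shown for 4 genes that carry the results below: Hoxa9, which gave signal in the whole body and on none of the condyle arrays, and Hoxa5, Hoxc4 and Hoxd8, which were above background in both joint tissues. Capitals mark the CpG dinucleotides, whose number differs widely between the windows. Hoxa9 lies at chr6:52227371-52227620 on the minus strand, Hoxa5 at chr6:52204588-52204837 on the minus strand, Hoxc4 at chr15:103034145-103034394 on the plus strand and Hoxd8 at chr2:74704365-74704614 on the plus strand.
Hoxa9: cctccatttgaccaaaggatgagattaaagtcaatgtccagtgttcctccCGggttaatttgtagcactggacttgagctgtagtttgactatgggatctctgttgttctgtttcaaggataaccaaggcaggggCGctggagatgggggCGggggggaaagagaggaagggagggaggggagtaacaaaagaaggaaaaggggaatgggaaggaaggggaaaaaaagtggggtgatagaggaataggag
Hoxa5: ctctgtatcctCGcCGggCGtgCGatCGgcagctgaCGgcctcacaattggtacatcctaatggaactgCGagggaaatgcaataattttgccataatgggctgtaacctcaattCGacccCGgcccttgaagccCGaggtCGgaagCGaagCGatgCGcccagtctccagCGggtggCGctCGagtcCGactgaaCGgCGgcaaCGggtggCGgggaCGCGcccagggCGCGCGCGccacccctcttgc
Hoxc4: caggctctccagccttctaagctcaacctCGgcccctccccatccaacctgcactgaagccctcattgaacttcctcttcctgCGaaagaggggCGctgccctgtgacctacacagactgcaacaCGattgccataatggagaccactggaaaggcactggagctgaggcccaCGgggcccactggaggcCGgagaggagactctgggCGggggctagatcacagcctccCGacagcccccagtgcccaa
Hoxd8: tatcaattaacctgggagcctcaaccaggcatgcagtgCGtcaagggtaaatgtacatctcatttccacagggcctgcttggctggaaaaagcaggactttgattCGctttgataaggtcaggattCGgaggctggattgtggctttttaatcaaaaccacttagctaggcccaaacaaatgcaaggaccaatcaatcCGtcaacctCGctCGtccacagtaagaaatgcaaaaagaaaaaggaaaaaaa

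These sequences hold 3 CpG in Hoxa9, 28 in Hoxa5, 8 in Hoxc4 and 6 in Hoxd8, beside a median of 13 over 21 windows of 19 measured Hox genes and of 6 over all 32851 RefSeq windows. Motifs were searched on both strands. CCAAT was found in 11 of 21 Hox windows (52.4%) and in 33.8% of all windows, and its first base on the gene's strand lies 62 bases before the start in Hoxd8; in Hoxa5 it stands on the opposite strand, from 204 bases before the start. TGATTNAT was found in 2 Hox windows, those of Hoxd11 and Hoxa2, and in 2.82% of all windows, and TATAAA in those of Hoxd13 and Hoxa10 and in 12.4% of all windows. A match describes the letters and does not show that a factor binds there.

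Of the 48 Hox probe sets, 18 were above background in at least 1 tissue, beside 22187 of all 45037 probe sets tested. Of the 48, 13 were above background in condyle, 10 in fossa and 16 in the whole body, which stood for 10, 8 and 14 genes. Of all 45037 probe sets tested, 20583 were above background in condyle, 17394 in fossa and 18626 in the whole body. On single arrays the Hox count was 14, 13 and 13 in condyle, 6, 10 and 9 in fossa, and 21, 14 and 15 in whole body. That was 27.1% to 29.2% of Hox probe sets on condyle arrays where 45.42% to 46.88% of all probe sets passed, 12.5% to 20.8% on fossa arrays where 30.31% to 43.8% passed, and 29.2% to 43.8% on whole body arrays where 37.42% to 45.86% passed. At or under the limit on all 9 arrays were 22 of the 48 Hox probe sets, beside 17222 of all 45037 tested. The 12 genes at or under it throughout were Hoxa11, Hoxb1, Hoxb2, Hoxb6, Hoxb7, Hoxb9, Hoxb13, Hoxc9, Hoxc10, Hoxc13, Hoxd11 and Hoxd12. Each of these genes had 1 probe set, so the arrays bound the signal of that probe set and not the level of the transcript. Of the 2 Hoxa9 probe sets, 1 was at background on all 9 arrays while the other gave signal in whole body. Hoxa4, Hoxa10 and Hoxc6 passed the limit on 1 whole body array per probe set at most and on no joint array. Hoxd1 passed it on 1 array of each tissue, with log2 values of 3.28, 2.65 and 2.50 in condyle, 2.82, 3.24 and 2.71 in fossa, and 2.66, 2.60 and 3.70 in whole body.

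**Figure D1:**
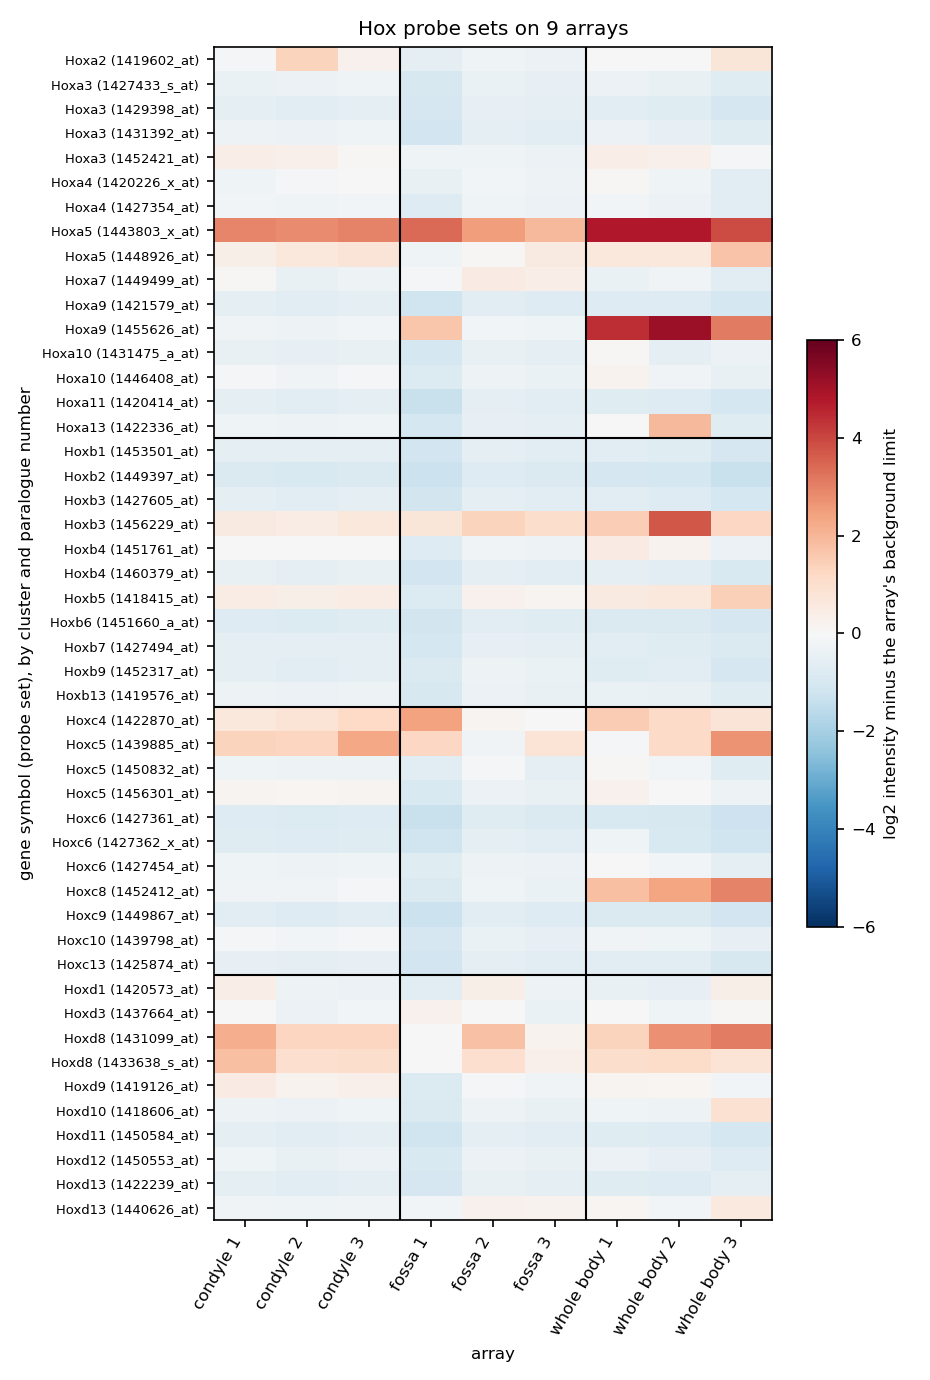
Log2 intensity minus the background limit of the same array (colour) for the 48 Hox probe sets (rows, by cluster and paralogue number) on the 9 arrays (columns, condyle, fossa, whole body). Red cells lie above the limit and blue cells at or under it; Hoxa9 and Hoxc8 are red in the 3 whole body columns, while Hoxa5 and Hoxb3 each have 1 probe set that is red on all 9 arrays.

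By position in the cluster, most probe sets with signal were of paralogue groups 1 to 8, in the joint as in the whole body. In condyle and in fossa most were of groups 5 to 8. Of 16 probe sets of paralogue groups 1 to 4, 5 were above background in condyle, 2 in fossa and 6 in the whole body. Of 15 in groups 5 to 8, 7 were above background in condyle, 7 in fossa and 7 in the whole body. Of 17 in groups 9 to 13, 1 was above background in condyle (Hoxd9), 1 in fossa (Hoxd13) and 3 in whole body (Hoxa9, Hoxd9 and Hoxd13). The median log2 difference in groups 1 to 4, 5 to 8 and 9 to 13 was -0.09, -0.24 and -0.10 between condyle and whole body and -0.13, -0.61 and -0.09 between fossa and whole body, on each side the joint tissue minus whole body. Over all 48 it was -0.11 and -0.14, beside -0.05 and -0.08 over all probe sets tested. These are counts and medians with no test.

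**Figure D2:**
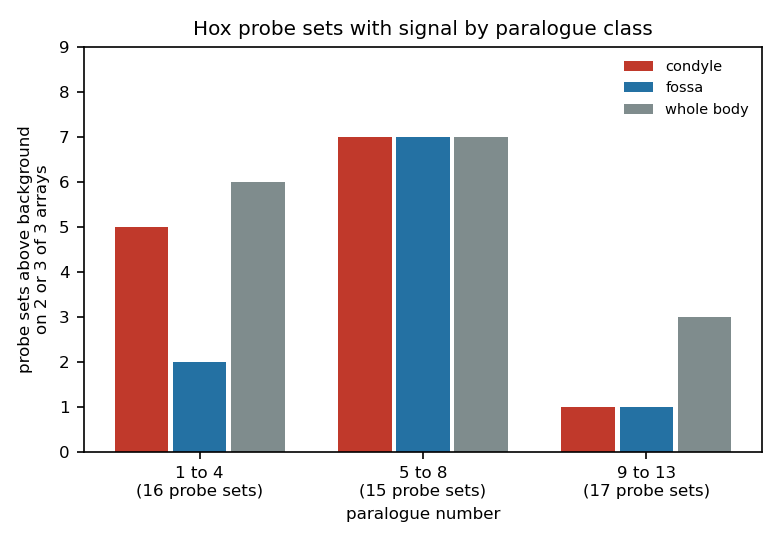
Number of Hox probe sets above background on at least 2 of 3 arrays (vertical axis) in paralogue groups 1 to 4, 5 to 8 and 9 to 13 (horizontal axis), with bars for condyle, fossa and whole body. In groups 5 to 8 each tissue reached 7 of 15 probe sets, and in groups 9 to 13 the bars stand at 1, 1 and 3 of 17.

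The trunk genes Hoxa9 and Hoxc8 were the Hox probe sets that passed the test as lower in condyle than in whole body, and both passed it in fossa too. Hoxa9, known for its part in the lumbar axis and in blood progenitors, had log2 values of 2.65, 2.64 and 2.69 in condyle, 5.17, 2.74 and 2.76 in fossa, and 7.53, 8.24 and 6.48 in whole body. All 3 condyle arrays and 2 of 3 fossa arrays were under the limit, and the first fossa array alone was above it; no joint array overlapped a whole body array. Hoxa9 was at least 22.9-fold lower in condyle than in whole body (log2 difference -4.76 ± 0.72 SE, limma adjusted p = 0.0137), where a fold given as "at least" sets the mean of the brighter group against the dimmer group's limit or own value, whichever is higher. In fossa it was at least 13.2-fold lower (log2 difference -3.86 ± 0.72 SE, limma adjusted p = 0.0132). Without the first fossa array the log2 difference was -4.66 (limma adjusted p = 0.00317). The fossa call was lost when fossa and whole body were fitted alone (adjusted p = 0.0506, range over the alternatives 0.0061 to 0.0506). A second Hoxa9 probe set, 1421579_at, was at background on all 9 arrays, with means of 2.27 in condyle, 2.28 in fossa and 2.32 in the whole body. In bulk tissue, fewer cells that express a gene and less RNA per cell cannot be told apart.

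Hoxc8, which patterns thoracic vertebrae and motor neurons of the brachial cord, had log2 values of 2.68, 2.71 and 2.77 in condyle, 2.68, 2.63 and 2.60 in fossa, and 4.90, 5.50 and 6.33 in whole body. All 6 joint arrays were at background and all 3 whole body arrays above it. It was at least 6.41-fold lower in condyle (log2 difference -2.86 ± 0.32 SE, limma adjusted p = 0.00455) and at least 5.42-fold lower in fossa (-2.94 ± 0.32 SE, limma adjusted p = 0.00164). Both calls held under each of the 10 other settings and with each array left out in turn.

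Over all members, 2 of 48 probe sets passed the test as lower in condyle than in whole body, against 1.99% of all 45037 probe sets tested, and 0 of 48 as higher, against 4.21%. Counting only calls with the brighter group above background, these remained 2 lower, against 1.79% of all, and 0 higher, against 4.2%. At an unadjusted limma p under 0.05, 11 Hox probe sets were lower and 0 higher. Because that count was not made over all probe sets, nothing about Hox genes is read from it. By sign alone, 45 of 48 Hox probe sets were lower in condyle, beside 29118 of all 45037. In fossa 9 of 48 passed as lower, against 13.1% of all, and 2 as higher, against 3.69%. With the brighter group above background, the fossa counts were 5 lower, against 9.26% of all, and 1 higher, against 2.16%. Centring on the 75th percentile moved the lower calls to 40 in condyle, where 25276 of all probe sets were then called lower, and to 2 in fossa, where 2104 were. Without the first fossa array 9 passed as lower in fossa, where 4887 of all 45037 probe sets did. Of the 9, the brighter group was above background in 6, a count not made over all probe sets in that fit. All 3 condyle arrays lay below all whole body arrays in 38 of 48 Hox probe sets, against 43.3% of all probe sets, but in 14, against 14.7%, after quantile normalization, in 9, against 6.31%, after median centring and in 43, against 63.3%, after centring on the 75th percentile. For fossa it was 24 of 48, against 29.5% of all, and 18, 14 and 4, against 21.9%, 17.1% and 9.47%, under the same alternatives in that order. Condyle and fossa were compared with the same whole body arrays, so their results are not independent of each other.

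Like Hoxa9 and Hoxc8, all 3 liver markers, all 3 measured red cell markers, 1 of 4 gut markers (Fabp2) and 1 of 2 lung markers (Sftpc) passed the test as lower in both joint tissues. The liver markers had summed intensities of 33.3 to 50.5 in condyle, 19.9 to 22.1 in fossa and 40800 to 47000 in whole body; Apoa1 was at background in condyle, and Apoa1 and Alb in fossa. The red cell markers had sums of 218 to 640 in condyle, 49.9 to 433 in fossa and 11700 to 13100 in whole body. Gut marker sums were 27.3 to 28.1 in condyle, 26.6 to 32.7 in fossa and 128 to 319 in whole body, with Cdx1 and Vil1 at background in all 3 groups, and lung marker sums were 10.4 to 12.0 in condyle, 12.7 to 20.0 in fossa and 55.2 to 102 in whole body. Of the 6 spinal cord and motor neuron markers, Chat, Lhx3, Mnx1 and Slc18a3 were at background in all 3 groups and the sums overlapped, with 79.5 to 191 in condyle, 43.0 to 253 in fossa and 52.0 to 92.8 in whole body; 0 passed the test in either tissue (limma, 1 lower in each at an unadjusted p under 0.05). Of 4 measured kidney markers Six2 was higher in condyle (1.87) and Cdh16 lower in fossa (-0.96). Of 4 limb mesenchyme markers Shox2 (-0.78), and of 4 skeletal muscle markers Mylpf (-2.65), were lower in fossa, and 0 of either list passed the test in condyle (limma, 1 limb marker higher and 2 muscle markers lower at an unadjusted p under 0.05). Of 5 somite and vertebra markers 0 passed in either tissue (limma, 1 higher in each at an unadjusted p under 0.05). Of 4 bone markers 0 passed in condyle (limma, 3 higher at an unadjusted p under 0.05), and Col1a1 (2.86) and Dmp1 (5.76) were higher in fossa. The part of these markers in the Hox results was not tested.

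Hoxa5, needed for lung and trachea development and for the cervical and upper thoracic skeleton, kept signal on every array. Probe set 1443803_x_at had log2 values of 5.83, 5.78 and 5.85 in condyle, 6.93, 5.42 and 4.92 in fossa, and 7.89, 7.91 and 7.27 in whole body. Both joint tissues lay below whole body on every array, and the fossa arrays spread over about 2 log2 units while the condyle arrays agreed closely. The log2 difference was -1.87 ± 0.48 SE in condyle (limma adjusted p = 0.0746, range over the alternatives 0.0130 to 0.0956) and -1.93 ± 0.48 SE in fossa (limma adjusted p = 0.037). The condyle difference did not pass the threshold and passed it under 5 of the 10 other settings and without the first fossa array (adjusted p = 0.00761). The fossa call was lost when any single array other than the first fossa array was left out, and without that array it was -2.52 (adjusted p = 0.00253); it was also lost after quantile normalization (adjusted p = 0.11) and 75th percentile centring (0.0806) and with 2 groups only (0.101). The second Hoxa5 probe set, 1448926_at, had means of 3.49 ± 0.21 in condyle, 3.26 ± 0.31 in fossa and 4.19 ± 0.77 in the whole body (SD, n = 3 each) and passed neither test.

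Hoxb3, a gene of the hindbrain and the pharyngeal arches, was above background on all 9 arrays with probe set 1456229_at. Its log2 values were 3.40, 3.40 and 3.48 in condyle, 4.24, 4.22 and 4.03 in fossa, and 4.55, 6.81 and 4.59 in whole body. Both joint tissues were below every whole body array, and condyle was below fossa on every array. The second whole body array was more than 2 log2 units above the other 2. The log2 difference from whole body was -1.89 ± 0.57 SE in condyle and -1.15 ± 0.57 SE in fossa, and neither passed the test (limma adjusted p = 0.111 and 0.22), although the condyle difference passed it under 2 of the 10 other settings. Without the second whole body array both passed it, at -1.14 in condyle (limma adjusted p = 0.00193) and -0.40 in fossa (adjusted p = 0.0221). The second Hoxb3 probe set, 1427605_at, was at background throughout, so that in fossa the 2 probe sets differed in sign, -1.15 against 0.03.

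**Figure D3:**
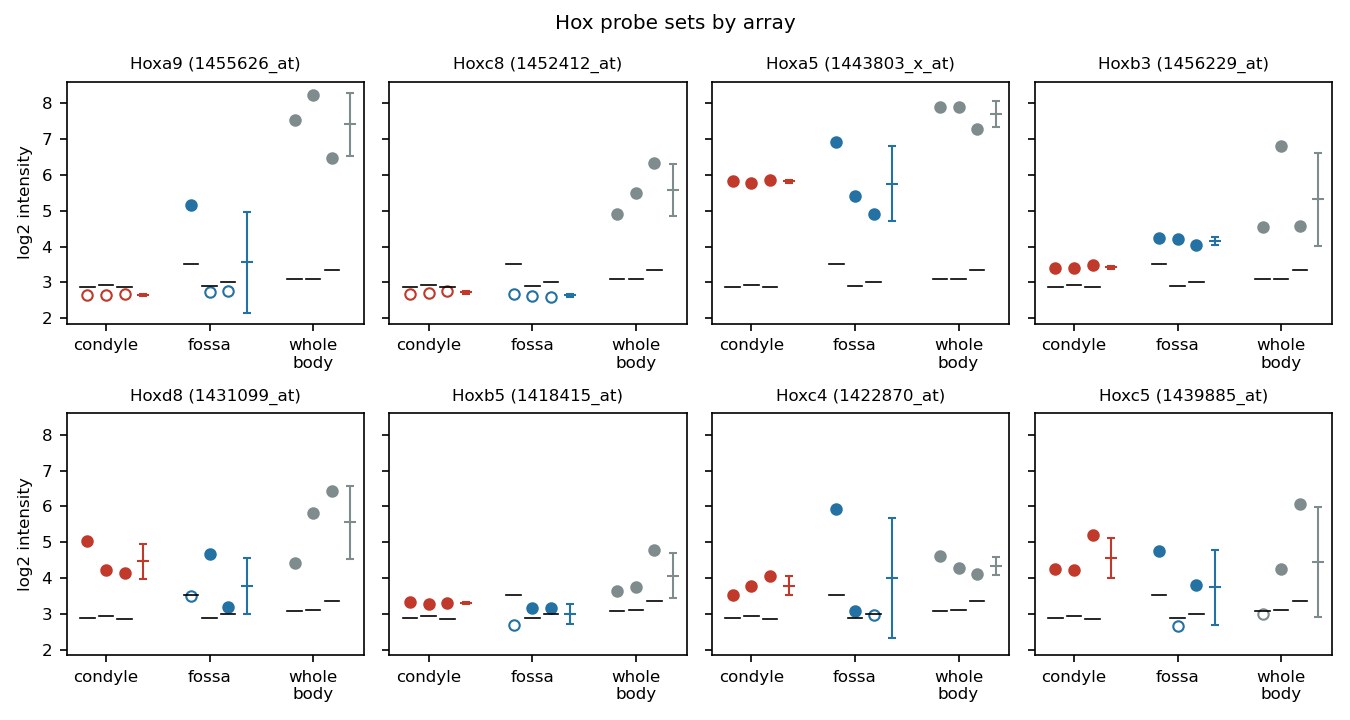
Log2 intensity on each array for 8 Hox probe sets (panels), with condyle, fossa and whole body from left to right; filled points lie above that array's background limit, open points at or under it, black ticks mark the limits, and bars give mean ± SD. Hoxa9 and Hoxc8 are open on the joint arrays except for 1 fossa array of Hoxa9 at 5.17, while Hoxa5 and Hoxb3 are filled on every array.

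Hoxd8 gave signal in all 3 tissues with both of its probe sets. Hoxd8 is expressed through the trunk, and probe set 1431099_at had log2 values of 5.04, 4.23 and 4.15 in condyle, 3.50, 4.66 and 3.19 in fossa, and 4.43, 5.83 and 6.42 in whole body. The first fossa array was under its limit and the groups overlapped. The log2 difference was -1.09 ± 0.60 SE in condyle and -1.78 ± 0.60 SE in fossa, and neither passed the test (limma adjusted p = 0.283 and 0.092). The condyle difference passed it after centring on the 75th percentile (adjusted p = 0.0351) and the fossa difference without the first whole body array (adjusted p = 0.0337). The second probe set, 1433638_s_at, had 4.70, 3.95 and 3.93 in condyle, 3.50, 3.91 and 3.29 in fossa, and 4.13, 4.22 and 4.17 in whole body, a log2 difference of 0.02 for condyle minus whole body. The 2 probe sets of Hoxd8 thus differed in sign by more than 1 log2 unit in condyle.

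Hoxc4 and Hoxc5, neighbours that act in the neck and shoulder region, were above background in both joint tissues and varied widely between arrays. Hoxc4 had log2 values of 3.53, 3.77 and 4.06 in condyle, 5.92, 3.07 and 2.98 in fossa, and 4.63, 4.27 and 4.13 in whole body. Its first fossa array was the highest of all 9, and 1 of the other 2 was above its limit. The Hoxc4 difference for fossa minus whole body was -0.35 (limma adjusted p = 0.786), and without that array it was -1.32 and passed the test (limma adjusted p = 0.0109). Hoxc5 probe set 1439885_at had 4.24, 4.24 and 5.19 in condyle, 4.76, 2.66 and 3.80 in fossa, and 3.01, 4.27 and 6.07 in whole body, and the groups overlapped throughout. Its fossa minus whole body difference was -0.71, and -1.22 without the first fossa array (limma adjusted p = 0.609 and 0.412). With all 9 arrays neither gene passed a test with these probe sets, and the SE of their log2 differences was 0.75 for Hoxc4 and 0.85 for Hoxc5.

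Hoxb5, a gene of the gut nervous system and the foregut, had log2 values of 3.33, 3.28 and 3.32 in condyle, 2.69, 3.16 and 3.16 in fossa, and 3.64, 3.76 and 4.78 in whole body. The joint arrays lay below all whole body arrays. In fossa the log2 difference was -1.06 ± 0.30 SE (limma adjusted p = 0.0555, range over the alternatives 0.0386 to 0.133), and it passed the threshold under 3 of the 10 other settings and without the first or the last whole body array. In condyle it was -0.75 ± 0.30 SE (adjusted p = 0.194).

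Apart from Hoxb3, the hindbrain and arch genes were at background or close to it on most joint arrays. Among these, Hoxa2 and Hoxa3 were above background in condyle. Hoxa2, the selector gene of the second arch, had log2 values of 2.76, 4.25 and 3.12 in condyle, 2.95, 2.63 and 2.66 in fossa, and 3.12, 3.10 and 4.07 in whole body. It was above background on 2 condyle arrays, no fossa array and 2 whole body arrays, and passed no test. Hoxa3, needed for the thymus and parathyroid, had 3.28, 3.24 and 2.95 in condyle, 3.27, 2.63 and 2.64 in fossa, and 3.49, 3.42 and 3.29 in whole body with probe set 1452421_at. Of its 4 probe sets only this one passed the limit, on 3 condyle arrays, no fossa array and 2 whole body arrays. With all 9 arrays this probe set passed no test. Without the first fossa array it passed 2, as lower in fossa than in whole body (log2 difference -0.76, limma adjusted p = 0.0108). The other was condyle minus fossa (0.52, limma adjusted p = 0.0397), beside -0.55 and 0.31 with all arrays. Hoxd3, which shapes the first neck vertebrae, had 2.84, 2.57 and 2.72 in condyle, 3.79, 2.87 and 2.61 in fossa, and 3.09, 2.86 and 3.42 in whole body, with the first fossa array alone of the fossa arrays above background; its fossa minus whole body difference was -0.03, and -0.39 without that array (limma adjusted p = 0.953 and 0.213). Hoxb1 and Hoxb2, genes of the hindbrain, were at background on all 9 arrays.

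Hoxd13, Hoxa13 and Hoxd10, genes of the limb tips and the hind end of the body, were at background or close to it in the joint. Hoxd13 probe set 1440626_at had log2 values of 2.68, 2.67 and 2.67 in condyle, 3.36, 3.16 and 3.21 in fossa, and 3.22, 2.94 and 3.95 in whole body. It was above background on no condyle array and on 2 fossa arrays, the first fossa array at 3.36 being under its own limit, and it passed no test. Hoxa13 was at background on all joint arrays and reached 5.07 on 1 whole body array, with 3.07 and 2.65 on the others, and Hoxd10 reached 4.28 on 1 whole body array, with 2.85 and 2.82 on the others. Their log2 differences of -1.14 ± 0.57 SE and -0.73 ± 0.37 SE for fossa minus whole body did not pass the test (limma adjusted p = 0.219 and 0.227).

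Between condyle and fossa, 8 Hox probe sets passed the test. Of 48 probe sets, 4 passed the test as lower in condyle than in fossa, against 4.02% of all, and 4 as higher, against 12% of all. With the brighter tissue above background the counts were 1 lower, against 0.837% of all, and 2 higher, against 10.6%. No Hox probe set differed by 1 log2 unit or more, while 10.5% of all probe sets did. The 3 calls with signal were Hoxa7, Hoxd9 and Hoxc5 probe set 1456301_at, all within 1 log2 unit of the background limit.

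Hoxa7, a thoracic gene, had log2 values of 2.95, 2.50 and 2.59 in condyle, 3.43, 3.38 and 3.40 in fossa, and 2.70, 2.91 and 2.68 in whole body. The fossa arrays were above both other groups, although the first of them, at 3.43, was under its own higher limit. Hoxa7 was at least 1.40-fold lower in condyle than in fossa (log2 difference -0.73 ± 0.12 SE, limma adjusted p = 0.00975) and at least 1.16-fold higher in fossa than in whole body (0.64 ± 0.12 SE, limma adjusted p = 0.0134). Both calls were lost when values under the limit were set to 1 common floor (adjusted p = 0.208 and 0.221, the highest over the alternatives, with 0.00237 and 0.00411 the lowest).

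Hoxd9, a gene of the lower trunk and limb bud, had 3.38, 3.17 and 3.18 in condyle, 2.72, 2.80 and 2.80 in fossa, and 3.24, 3.22 and 3.21 in whole body. The fossa arrays were at background and below both other groups on every array. Its log2 difference was 0.47 ± 0.06 SE for condyle minus fossa (limma adjusted p = 0.00495), which turned to -0.20 after centring on the 75th percentile, and -0.45 ± 0.06 SE for fossa minus whole body (adjusted p = 0.00482). Hoxd9 was at least 1.08-fold higher in condyle than in fossa and at least 1.06-fold lower in fossa than in whole body, and a common floor removed both calls, as 75th percentile centring did the second (adjusted p up to 0.495).

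The remaining calls lay at the limit of detection. Hoxb4, tied to blood stem cells, had 2.93, 2.94 and 2.88 in condyle, 2.74, 2.70 and 2.69 in fossa, and 3.58, 3.33 and 3.00 in whole body with probe set 1451761_at. Its fossa minus whole body difference of -0.59 ± 0.13 SE passed the test (at least 1.12-fold lower, limma adjusted p = 0.0243) and was lost in 4 of the 9 fits with 1 array left out, those without any of the 3 fossa arrays or the second whole body array (adjusted p up to 0.0754). It was also lost after 75th percentile centring (-0.32, adjusted p = 0.267), with a common floor (-0.26, 0.241) and with 2 groups only (0.0761). Hoxc5 probe set 1456301_at had means of 3.05 in condyle, 2.56 in fossa and 3.17 in the whole body, with log2 differences of 0.50 for condyle minus fossa (-0.17 after centring on the 75th percentile) and -0.61 for fossa minus whole body. The first of these calls was lost with a common floor (adjusted p = 1), and the second with that floor and after 75th percentile centring, down to -0.09 (adjusted p up to 0.56). With both groups at background, 4 fossa minus whole body calls and 5 condyle minus fossa calls remained, all of 0.37 log2 units or less. They were those of Hoxa3 1431392_at, Hoxc10, Hoxb4 1460379_at and Hoxb9 in fossa, and those of Hoxa3 1431392_at and 1429398_at, Hoxc10, Hoxb2 and Hoxb9 between condyle and fossa, and no fold is given for them.

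**Figure D4:**
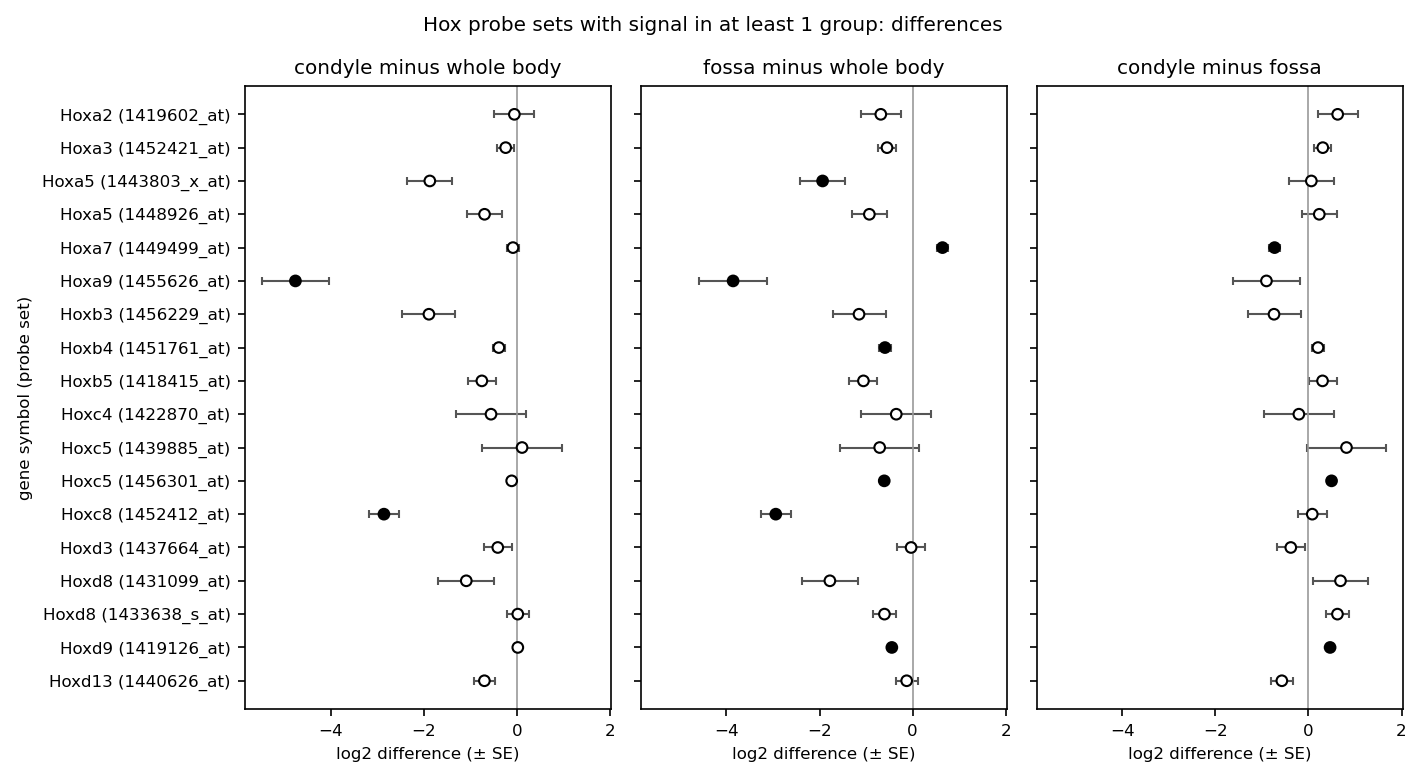
Log2 difference with its standard error (horizontal axis) for the 18 Hox probe sets with signal in at least 1 tissue (rows), with condyle and fossa each against whole body in the left and middle panels and condyle minus fossa in the right one, all on the same scale; filled points have a limma adjusted p under 0.05. Hoxa9 at -4.76 and -3.86 and Hoxc8 at -2.86 and -2.94 lie farthest from 0, and no point in the condyle minus fossa panel reaches 1 log2 unit.

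The partners and regulators of Hox genes were described from lists, each gene by its brightest probe set. Over all 18193 genes taken the same way, 7.05% passed the test as higher and 2.91% as lower in condyle than in whole body, 4.2% and 15.9% in fossa than in whole body, and 16.2% and 2.82% in condyle than in fossa. Hox proteins bind DNA together with TALE homeodomain cofactors of the Meis and Pbx families. Of 8 measured cofactors, 0 passed the test in condyle against whole body in either direction (limma, 2 higher and 0 lower at an unadjusted p under 0.05). In fossa Meis1 was lower, with means of 5.88 ± 0.33 in fossa and 7.21 ± 0.29 in whole body (SD, n = 3 each, log2 difference -1.34, limma adjusted p = 0.0131), and Pbx4 was called higher with both groups at background. Pbx4 was also the 1 cofactor called lower in condyle than in fossa.

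Polycomb proteins keep Hox genes silent, and Trithorax proteins keep them active. Of 19 measured Polycomb genes, 3 passed the test as higher in condyle than in whole body, Phc1 (log2 difference 1.80), Cbx2 (at least 2.77-fold, with whole body at background) and Ezh2 (0.50), and 0 as lower (limma, 0 lower also at an unadjusted p under 0.05); the median of the list was 0.19. Of the 9 fits with 1 array left out, the call was lost in 8 for Phc1, 7 for Cbx2 and 8 for Ezh2, and of the 10 other settings in 4, 1 and 6. In fossa 0 were higher (limma, 2 at an unadjusted p under 0.05) and 3 lower, Bmi1 (-1.76), Rnf2 (-1.62) and Rbbp7 (-0.41), with a median of -0.04. The Bmi1 call held in all of these fits and settings, while that of Rnf2 was lost in 8 of 9 fits and 4 of 10 settings and that of Rbbp7 in 4 of 10 settings, down to -0.02. Between the joint tissues 6 of 19 were higher in condyle than in fossa, beside 16.2% of all genes, among them Bmi1 (1.55) and Cbx2 (at least 2.41-fold, above background on 1 fossa array), and 0 lower (0 also at an unadjusted p under 0.05). The Bmi1 call was lost in 2 and the Cbx2 call in 4 of the 9 fits.

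Of 13 measured Trithorax genes, 4 passed the test as higher in condyle than in whole body, Kmt2b, Kmt2d (2.17), Kmt2c (1.67) and Rbbp5 (1.62), with a median of 1.18 over the list. The Rbbp5 call was lost in 8 of 9 fits with 1 array left out and under 2 of 10 settings, and the other 3 held throughout. Kmt2b, a histone H3 methyltransferase, had log2 values of 5.33, 5.55 and 5.99 in condyle, 4.13, 4.25 and 4.14 in fossa, and 2.93, 2.91 and 2.89 in whole body, where it was at background. Both joint tissues were above whole body on every array, by at least 5.41-fold in condyle (limma adjusted p = 0.000265) and at least 1.99-fold in fossa (limma adjusted p = 0.0025). In fossa Kmt2d (1.48) was higher too, and 3 were lower, among them Dpy30 (-1.43) and Psip1 (-1.33). The Psip1 call was lost in 7 of 9 fits and 3 of 10 settings and that of Dpy30 under 1 setting. Between the joint tissues 6 of 13 were higher in condyle than in fossa, beside 16.2% of all genes, among them Kmt2b (1.45) and Men1 (at least 3.35-fold, above background on 1 fossa array). The Men1 call was lost in 4 of 9 fits.

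Retinoic acid switches on Hox genes along the axis. Of 14 measured genes of its enzymes, binding proteins and receptors, the receptor gene Rarg passed the test as higher in condyle than in whole body (1.12), and 3 were lower in fossa, the enzyme gene Rdh10 (-1.54) and the receptor genes Rarg (at least 1.80-fold) and Rxrg (at least 1.09-fold). The Rdh10 call held throughout, that of Rarg was lost in 8 of 9 fits with 1 array left out in condyle and in 6 of 9 in fossa, and under 3 and 4 of the 10 other settings, and that of Rxrg was lost in 7 of 9 fits and under 7 of 10 settings (adjusted p up to 0.468). Rarg had log2 values of 5.67, 5.63 and 4.97 in condyle, 3.29, 3.26 and 3.58 in fossa, and 4.45, 4.48 and 3.96 in whole body, so that it was above whole body in condyle and below it in fossa on every array. Between the joint tissues 5 of 14 were higher in condyle than in fossa, beside 16.2% of all genes, among them Rarg (at least 3.92-fold), Aldh1a3 (at least 2.74-fold, above background on 1 fossa array), Crabp1 (1.66) and Rdh10 (1.54). The Rarg and Rdh10 calls held throughout, while that of Aldh1a3 was lost in 6 of 9 fits. Of 10 measured other regulators of Hox transcription, Yy1 was lower in fossa than in whole body (-1.42), Gli3 (1.31) and Ctcf (1.01) were higher in condyle than in fossa (lost in 6 and 7 of 9 fits), and 0 passed the test in condyle against whole body (limma, 3 higher and 1 lower at an unadjusted p under 0.05).

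Another list held homeobox genes of the head and other genes of the first arch. Of its 20 measured genes, 13 were above background in condyle, 10 in fossa and 9 in the whole body. Of the 20, 4 passed the test as higher in condyle than in whole body, Pax9 (at least 8.19-fold), Dlx5 (at least 2.12-fold), Dlx1 (2.20) and Lhx8 (1.74). In fossa 2 were higher, among them Dlx1 (1.87), and 3 lower, Hand2 (at least 3.12-fold), Lhx8 (-1.55) and Dlx2 (at least 2.35-fold). The Hand2 call was lost in 7 of 9 fits and 3 of 10 settings, the condyle calls of Dlx1 in 1 fit and of Lhx8 under 2 settings. Between the joint tissues 7 of 20 were higher in condyle than in fossa, beside 16.2% of all genes, among them Pax9 (at least 12.2-fold) and Gsc (at least 4.50-fold), each above background on 1 fossa array, Lhx8 (3.29) and Dlx2 (at least 2.83-fold). The Gsc call was lost in 6 of 9 fits. Of 11 other homeobox genes related to Hox, Meox2, a gene of somites and muscle precursors, passed the test as lower in both joint tissues. Its log2 values were 3.97, 4.03 and 3.66 in condyle, 3.72, 5.39 and 3.90 in fossa, and 5.83, 6.43 and 6.83 in whole body, a difference of -2.48 in condyle and -2.03 in fossa. The calls were lost in 5 and 4 of the 9 fits with 1 array left out (adjusted p up to 0.0888 and 0.09) and each under 1 of the 10 other settings. En1 was called higher in fossa than in whole body (0.38) with both groups at background. Of 54 calls on the leading genes of these lists, 24 held under each other setting that gave a value (3 of them, of Pbx4 and En1, under 8 of 10), 29 held with each array left out in turn, and 0 changed sign.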

How the data were processed

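RNA of 3 condyle, 3 fossa and 3 whole body samples was measured on 9 Affymetrix mouse arrays. The authors deposited 1 intensity per probe set and array on a linear scale, from 3.25 to 67158.9; background correction, normalization and probe summary are not given in the sources used here, and limma is named, per the submitters' processing notes, without version or role. All 9 deposited columns belong to named samples. Arrays were grouped by their titles.

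The log2 of each intensity was taken, with a floor of 1. Names came from the platform annotation, with symbols checked against RefSeq (GRCm38.p6); 34945 had 1 symbol, 932 several and 9160 none, 0 symbols changed, and all 48 Hox probe sets matched RefSeq. Of 45101 probe sets, 64 array controls were left out and 45037 tested with limma 3.58.1 in R 4.3.3 (lmFit and eBayes, 3 groups in 1 fit, 6 residual and 0.99 prior degrees of freedom), with Benjamini-Hochberg adjustment over all of them and a threshold of 0.05. The fit was tested on simulated data. Values after ± are SE of a difference or SD of 3 arrays. A fold is given as "at least" where the dimmer group had fewer than 3 arrays above the background limit. The number of arrays limits the precision.

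Named are each Hox probe set past the threshold, each Hox gene above background in condyle or fossa, the 3 Hox genes per cluster with the highest whole body mean, Hox genes whose probe sets differ in sign by at least 1, the hindbrain and arch genes, and up to 4 members past the threshold of a list. The members and the 18 gene lists were chosen with earlier results of these data known; the counts by signal, the non-overlap counts under other scalings, the alternatives for listed genes and the marking of CpG were chosen after seeing the data. Promoter windows are RefSeq's, 250 bases long. Alternatives covered the normalization, floor, pseudocount of 16, background filter, 1 probe set per gene, the groups fitted, the prior, a replicate block and leaving out each array. Figures were drawn with matplotlib 3.10.9 in Python 3.11.15.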

Additional observations from a re-analysis of the deposited data

How the results depend on the processing

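Scaling mattered most. Centring on the 75th percentile moved the median log2 difference of all probe sets to -0.449 for condyle minus whole body, 0.194 for fossa minus whole body and -0.63 for condyle minus fossa, and the share of higher calls to 8.9%, 48% and 6.1%, beside 68%, 21.9% and 74.9% as deposited, 47.6%, 47.4% and 52.5% after quantile normalization and 78.6%, 67.5% and 62.7% after median centring. Hox calls lower in condyle than in whole body went to 40 (10 with signal) after 75th percentile centring and 4 (4 with signal) after the background filter. Calls lower in fossa than in whole body went to 2 (2 with signal) after that centring, 3 (3) with a common floor and 5 (2) with 2 groups only; calls higher there went to 9 after median centring, 0 (0) with a common floor and 1 after the filter. Calls lower in condyle than in fossa went to 31 (3 with signal) after 75th percentile centring, 0 (0) with a common floor, 2 with a pseudocount of 16, 1 after the filter, 2 with 1 probe set per gene, 7 (3) with 2 groups only and 8 with a trend and robust prior; calls higher went to 0 (0), 0 (0), 2 and 2 (1) under the centring, floor, filter and 1 probe set per gene. The changes after the filter and with 1 probe set per gene come with fewer probe sets tested; the other causes were not tested. After 75th percentile centring the sign turned for Hoxb4 1460379_at in fossa minus whole body (0.13) and, in condyle minus fossa, for Hoxd9 (-0.20), Hoxa3 1431392_at (-0.42), Hoxc10 (-0.40) and Hoxc5 1456301_at (-0.17).

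With 1 array left out, condyle minus whole body gave 2 to 5 lower Hox calls (2 to 3 with signal) and 0 higher. Fossa minus whole body gave 6 to 11 lower (3 to 6) and 2 higher (1). Condyle minus fossa gave 2 to 6 lower (1 to 2) and 4 to 5 higher (2 to 3). Over all 45037 probe sets the same contrasts gave 489 to 1302, 3686 to 6004 and 912 to 2425 lower calls in that order. Higher calls were 973 to 2094, 1033 to 1595 and 3407 to 5659. Lower calls in condyle against whole body were 4 and 5 without whole body replicates 2 and 3; lower fossa calls with signal were 3 without fossa replicate 2 or 3; lower calls between condyle and fossa were 2 without any 1 joint array, and those with signal 2 without whole body replicate 2 or 3. Of 21 Hox calls, 5 held under all other settings that gave a value (both Hoxb9 calls under 8 of 10, having no variation at the floor and falling to the filter) and 16 with each array left out. The replicate numbers gave no sign of pairing (correlations of same-numbered deviations -0.334 to 0.138). Those of differently numbered arrays were -0.14 to 0.406, the highest being condyle 1 with fossa 2. Which arrays share an embryo is not labelled and cannot be read from these correlations. The replicate block moved calls lower in condyle than in fossa to 2 and no other Hox count by over 1.5 times. Counts above background stayed within 1.5 times under both other limits. Differences near the limit of detection are bounded by the signal over background.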

Other observations

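Transcripts that run antisense to Hox genes have probe sets of their own. Hoxb5os probe set 1447886_at had log2 values of 2.74, 2.86 and 3.28 in condyle, 3.44, 2.93 and 2.93 in fossa, and 5.26, 5.47 and 7.16 in whole body. All joint arrays were below all whole body arrays, by at least 7.62-fold in condyle (limma adjusted p = 0.0171) and at least 7.03-fold in fossa (limma adjusted p = 0.00935). Hoxb5 itself passed neither test. A Hoxa11os probe set, 1457646_at, had 2.46, 2.40 and 2.47 in condyle, 3.83, 2.60 and 2.59 in fossa, and 3.04, 3.46 and 2.49 in whole body, and passed no test. Its first fossa array was the highest of all 9, as it was for Hoxc4. These probe sets were picked after their values were seen.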
